A study of Mus musculus with 80 samples.

Results

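Pseudogene sites were the places where retinoid X receptor (RXR) ChIP-Seq peaks of mouse liver fell on the annotated exons of pseudogenes. Overlapping peaks of 40 ChIP libraries were merged into 215015 sites on the autosomes, X and Y. A site was kept when at least 3 libraries called it, when its strongest summit lay in no protein-coding exon, and when it overlapped an exon of a pseudogene transcript. This left 2437 members among the 36132 sites called in at least 3 libraries. The members were thus chosen by the peak calls themselves, so the number of libraries calling a member is a description and carries no test. Livers came from male C57BL6/J mice with PPARγ in hepatocytes (WT) and from mice in which floxed PPARγ alleles were crossed to an Alb-Cre line (KO), a Cre driven by the albumin promoter of hepatocytes. Both genotypes were fed for 12 weeks and were 5 months old when the livers were taken. The diets were a control diet (Control), the control diet with pioglitazone (Pio), a high-fat diet (HFD), and the high-fat diet with pioglitazone (HFD-Pio), and each of the 8 groups had 5 livers. The study asked how pioglitazone and diet change where RXR sits on liver DNA. WT animals were not described as floxed littermates of the KO animals, and the peak lists do not measure whether PPARγ was deleted. The files do not say more than that each library was 1 liver of a group.

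RXR pairs with PPARγ, the receptor that pioglitazone activates, and the pair binds DNA at direct repeats of a short hexamer. A processed pseudogene is a copy of a messenger RNA that was reverse transcribed and inserted elsewhere in the genome, so it lacks the introns of its parent gene and mostly lacks the parent's promoter. Highly expressed housekeeping genes, such as those of ribosomal proteins and of Gapdh, have left the most copies in the mouse genome. A short read from a young copy can match the parent and its other copies equally well, so that the position given to it depends on how the aligner treats repeated matches.

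The 3 sites shown here, called in all 10 Pio-treated WT livers and in all 20 KO livers, show what a member is. In each of them the 30 bases at a former exon junction of the parent ran straight from one exon into the next, with 0 mismatches to the spliced messenger RNA. The line below each pseudogene gives the same position in the parent gene, where the exon runs into the intron, and capitals mark the intron bases. The sequences were read from the GRCm38 (mm10) reference, each 5′ to 3′ on the strand of its gene.
Gm13456, chr2:40556484-40556513, plus strand: tctataaaattggaggcattggcactgtcc
Eef1a1, end of exon 5, chr9:78479609-78479638, minus strand: tctataaaattggagGTAAGTAGAATATTA
Rpl14-ps1, chr7:45325250-45325279, plus strand: gatgccagagaaaggaaagccaagatgaca
Rpl14, end of exon 4, chr9:120573661-120573690, plus strand: gatgccagagaaaggGTAAAGGCACAAAGC
Gm12715, chr4:103564189-103564218, plus strand: agccttccttcctgggcatggagtcctgtg
Actg1, end of exon 4, chr11:120346896-120346925, minus strand: agccttccttcctggGTAGGTGTCCACAAC
The Gm13456 site crossed 6 such junctions, and those of Rpl14-ps1 and Gm12715 crossed 5 each.

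Several properties of the libraries moved with the groups. WT libraries kept 2.04 to 4.26 Mtags (megatags, aligned reads as MACS2 counts them) and KO libraries 0.628 to 1.06 Mtags after duplicates at a position were removed. MACS2 had been given a p of 0.001 as its limit for WT and a q of 0.05 for KO. Of the 10 Pio-treated WT libraries, 6 were called with a fragment estimate of 45 to 48 bp (Pio replicates 2, 3 and 5, HFD-Pio replicates 1, 4 and 5), and all other libraries with 119 to 292 bp. Summits lying wholly in sequence that occurs more than once in the genome made up 3.81% to 11.5% of a WT library's peaks and 0.261% to 0.618% of a KO library's. How repeated matches were handled in either genotype is not given in the sources used here, so genotype and this difference cannot be told apart. The labels of the 15 KO libraries from Pio, HFD and HFD-Pio livers give RXR in the title only and leave the antibody out. Of 15 liver marker genes, 6 had an exon peak in an untreated WT liver, 1 in a Pio-treated WT liver and 2 in a KO liver. The 6 were all called in the same WT Control liver, and the median untreated WT liver had 0. The 1 in Pio-treated WT, Fabp1, was called in 8 of 10 livers. In KO, Ttr was called in 20 of 20 livers and Serpina1b in 1. Of 11 neural markers, 3 had an exon peak in at least 1 Pio-treated WT liver and 10 in at least 1 KO liver, with 6 to 9 of them per KO liver. For 7 intestinal markers these numbers were 5 and 1, for 7 muscle markers 5 and 5, and for 4 blood markers 3 and 2. None of these marker genes was the parent of a member, and their part in the results was not tested.

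The members were almost all retroposed copies. Processed pseudogenes held 2317 of them and transcribed processed pseudogenes 74, together 98.1%, while 21 lay in unprocessed pseudogenes, which arise by gene duplication. The sites covered 2129 pseudogenes on 21 chromosomes, from 3 sites on Y to 207 on X, and 258 pseudogenes held more than 1 site. The strongest summit lay inside the pseudogene exon at 2333 members, and 600 members lay within the span of a protein-coding gene, as Rpl14-ps1 does within Trpm4. A member was 47 to 2594 bp wide with a median of 333 bp. The median of the strongest -log10 p was 14.7 for members and 9.44 for the other 33695 sites called in at least 3 libraries. A -log10 p grows with depth, and WT libraries were deeper than KO libraries. Members were called in a median of 5 WT and 1 KO libraries, and the 2 sets of sites were not matched for this. At the edge of the rule, the 336 members called in exactly 3 libraries had a median highest fold enrichment of 4.70, and the 518 pseudogene sites in exactly 2 libraries, which were left out, had 4.49.

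A parent gene was found for 2355 members (96.6%) by aligning the pseudogene to transcripts of protein-coding genes. The aligned identity had a median of 96.5%, and 106 members had parents that tied. Where the pseudogene's own symbol names a gene, as Rpl14-ps1 does, the alignment gave that gene for 299 of 311. The sites crossed at least 1 former exon junction of the parent at 1917 members (81.4%), and at 84.0% of those whose parent has an intron. The summit faced the parent's coding sequence at 2244 members, its 3′ UTR at 82 and its 5′ UTR at 17. Only 117 members lay on the chromosome of their parent.

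Calls at the members were common in Pio-treated WT livers and nearly absent from untreated WT livers. WT Control livers called 2, 4, 1, 1 and 8 members, and WT HFD livers called 1, 0, 2, 1 and 1. WT Pio livers called 1480, 1605, 2050, 317 and 1589, and WT HFD-Pio livers called 1918, 293, 335, 1769 and 971. Every Pio-treated WT liver thus lay above every untreated one, although replicate 4 of Pio and replicates 2 and 3 of HFD-Pio called far fewer members than the rest. KO livers called 381, 585, 673, 249 and 605 members in Control and 570, 515, 540, 595 and 534 in Pio. They called 587, 508, 696, 500 and 257 in HFD and 517, 581, 583, 597 and 561 in HFD-Pio. The KO groups overlapped one another throughout. Of the members, 1176 were called in WT only, 242 in KO only and 1019 in both. A total of 90 were called in all 10 Pio-treated WT livers, 109 in all 20 KO livers, and 18 in any untreated WT liver. These counts are not set beside the same split over all 36132 sites called in at least 3 libraries. They therefore do not show a trait particular to the members.

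**Figure D1:**
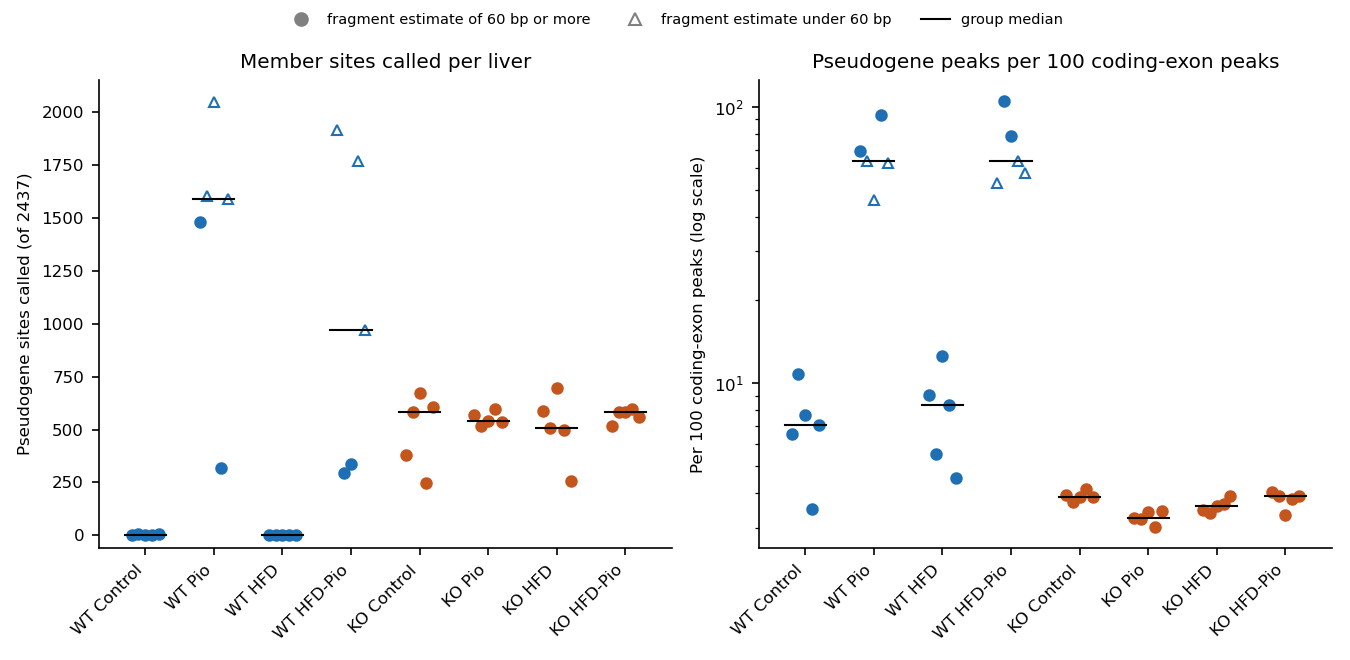
The left panel plots the number of the 2437 pseudogene sites called in each liver, and the right panel plots pseudogene peaks per 100 coding-exon peaks on a log scale, both by group, with bars at the group median and open triangles for libraries with a fragment estimate under 60 bp. Untreated WT livers sit at 0 to 8 called sites and Pio-treated WT livers at 293 to 2050, and in the right panel all 20 KO livers sit between 3.02 and 4.15.

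The contrasts were tested on all peaks with a summit in a pseudogene exon and in no protein-coding exon, recurrent or not, so that they did not rest on the choice of members. In WT livers, the share of such peaks was higher with Pio on both diets. On control diet it was 16% ± 4.96 (SD, n = 5) of a library's peaks with Pio and 0.209% ± 0.152 without, a difference of 15.8 percentage points (exact permutation test, two-sided, p = 0.00794, the smallest that 5 livers against 5 allow, adjusted p = 0.0159 over 12 contrasts). On HFD it was 12.9% ± 7.22 with Pio and 0.137% ± 0.0540 without, a difference of 12.8 points (adjusted p = 0.0159 by the same exact test). The number of these peaks was 220-fold higher with Pio on control diet and 369-fold higher on HFD in geometric means of the number plus 1 (adjusted p = 0.0238 for both, exact permutation). Every treated liver exceeded every untreated liver in both comparisons. The size of the difference in share depended on which peaks were counted. It was 40.1 and 38.4 points on the 2 diets at a -log10 q of at least 5, 37.7 and 38.1 at a fold enrichment of at least 5, 40.9 and 37.1 in lists of equal length, and 21.4 and 24.8 at a q of at most 0.05 (adjusted p = 0.0159 for all, exact permutation). The untreated numbers behind these folds were 3 to 15 peaks in Control and 1 to 4 in HFD. The rise was not confined to pseudogenes. Peaks with a summit in a protein-coding exon averaged 24.2% of a library with Pio and 3.04% without on control diet. On HFD they averaged 19.4% and 1.73%. All peaks together averaged 13915 per library in Pio, 5029 in Control, 11902 in HFD-Pio and 1264 in HFD. The 6 libraries with fragment estimates of 45 to 48 bp were all Pio-treated WT. These contrasts do not separate treatment from that property of the libraries.

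Peaks in pseudogenes also rose relative to peaks in the exons of all protein-coding genes. In WT Pio livers there were 69.1, 63.5, 45.8, 93.4 and 62.4 pseudogene peaks per 100 coding-exon peaks, and in WT HFD-Pio livers 53.1, 105, 78.7, 63.6 and 57.8. In untreated WT livers the ratio was 3.51 to 10.8 in Control and 4.55 to 12.5 in HFD, on 12 to 139 coding-exon peaks. The ratio was 8.86-fold higher with Pio on control diet and 6.94-fold higher on HFD (log2 differences of 3.15 and 2.80, adjusted p = 0.0159 for both, exact permutation). The log2 differences were 2.13 and 1.78 at a fold enrichment of at least 5 and 4.05 and 3.13 at a -log10 q of at least 5, all past the threshold. The 4 Pio-treated WT livers with longer fragment estimates, both diets together, exceeded the 10 untreated ones by 14.7 points in share and by 3.32 in the log2 ratio (p = 0.000999 for both, exact permutation, the smallest that this split allows, chosen after the values were known). Within a diet, leaving out the short-fragment libraries kept the differences at 19.4 and 10.1 points but ended the calls, with an adjusted p of 0.0816 for both, because 2 livers remained in each treated group.

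In KO livers, no rise with Pio in share, number or ratio passed the test. The share was 2.62% ± 0.189 with Pio and 3.08% ± 0.273 without on control diet (difference -0.454 points, adjusted p = 0.0272, exact permutation, n = 5). The ratio to coding-exon peaks fell to 0.835 of the control value (log2 difference -0.26, adjusted p = 0.0159, exact permutation), and every KO Pio liver lay below every KO Control liver. On HFD the KO share was 2.93% ± 0.267 with Pio and 2.92% ± 0.258 without (difference 0.00603 points, adjusted p = 0.984, exact permutation). The fall in share on control diet was lost when any of KO Pio replicates 1 to 4 was left out (adjusted p up to 0.0680), and both falls were lost when lists were shortened to equal length (adjusted p = 0.467 and 0.245). The labels name the antibody for KO Control livers and not for KO Pio or KO HFD livers. Contrasts of KO Pio or KO HFD with KO Control cannot be told apart from that difference in labels.

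The difference in share with Pio was larger in WT than in KO on both diets. The WT effect exceeded the KO effect by 16.2 points on control diet (adjusted p = 0.000252) and by 12.8 points on HFD (adjusted p = 0.00813), with labels permuted within each contrast over 63504 assignments. Between diets, HFD minus control, the Pio effect differed by -3.0 points in WT (adjusted p = 0.701) and by 0.460 points in KO (adjusted p = 0.0976) by the same exact permutation. That permutation shuffles treated and untreated livers, so a large Pio effect widens the shuffled differences. In WT it therefore has little power for a diet difference and cannot decide whether there is one. For the genotypes, its null is no Pio effect in either of them. A small p there can come from the Pio effect in WT itself, so it does not test whether the effects are equal. Compared directly, the share in WT HFD-Pio minus WT Pio was -3.07 points (adjusted p = 0.468, exact permutation). HFD alone left the WT share at 0.137% against 0.209% in Control (adjusted p = 0.467, exact permutation), and in KO it lowered the ratio to coding-exon peaks to 0.919 of Control (adjusted p = 0.0423, exact permutation). The latter call was lost without any of 8 of the 10 livers, KO Control replicates 1, 3, 4 and 5 and KO HFD replicates 1 to 4, with an adjusted p of up to 0.0847. The KO ratio was 1.16-fold higher in HFD-Pio than in Pio (adjusted p = 0.0357, exact permutation), a call that was lost at a -log10 q of at least 5 (log2 difference 0.25, adjusted p = 0.0952).

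Between genotypes, the share was higher in WT where Pio was given and lower where it was not. Pio-treated WT exceeded Pio-treated KO by 13.3 points on control diet and by 9.97 points on HFD, while untreated WT lay 2.87 and 2.78 points below untreated KO (adjusted p = 0.0159 for all 4, exact permutation). Without KO HFD-Pio replicate 3 the HFD-Pio difference had an adjusted p of 0.0544. Per 100 coding-exon peaks, WT had 19.9-fold more pseudogene peaks than KO in Pio and 18.3-fold more in HFD-Pio, and 1.88-fold and 2.78-fold more in Control and HFD (adjusted p = 0.0159, 0.0159, 0.0357 and 0.0159, exact permutation). The Control difference was lost with a q of at most 0.05 required in every library (log2 difference 0.34, adjusted p = 0.556), at a -log10 q of at least 5 (0.11) and in lists of equal length (0.23), and the HFD difference was lost when any overlap with an exon counted (0.89, adjusted p = 0.0635). KO libraries differed from WT libraries in depth, cutoff, and the share of peaks in repeated sequence, as given above.

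Restricting the counts to peaks whose summit windows of 50 bases all occur once in the genome kept the direction of the WT differences. Such peaks in pseudogenes numbered 15.6 to 42.5 per 100 coding-exon peaks of the same kind in Pio-treated WT livers, 0 to 16 in untreated WT livers, and 1.48 to 1.96 in KO livers. In WT their share was 6.79 points higher with Pio on control diet and 4.98 points higher on HFD (adjusted p = 0.0190 for both, exact permutation). The WT effect exceeded the KO effect by 6.94 points on control diet (adjusted p = 0.000630) and by 4.98 on HFD (adjusted p = 0.00825). These p-values come from the same permutation within each contrast, which does not test whether the effects are equal. These counts were added after the values of the full set were known.

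Counted site by site, a member was taken as gained when at least 3 of 5 treated livers and 0 of 5 untreated livers called it, and as lost in the opposite case. In WT, 1519 members were gained on Pio and 939 on HFD-Pio, and 0 were lost on either. Among all sites called in at least 3 of the 10 livers of the contrast, 93.9% were gained on Pio and 94.8% on HFD-Pio, and 0.535% and 0.393% were lost, so that the members' counts stand against a background in which nearly every site was gained. In KO, 18 members were gained on Pio and 22 on HFD-Pio, against 5.77% and 2.67% of all sites tested, and 8 and 5 were lost, against 1.22% and 1.95%. Those KO counts came from 731 and 754 members tested. Leaving out 1 liver moved them to 8 to 33 and 8 to 44 gained, and moved the 939 of WT HFD-Pio to 411 without HFD-Pio replicate 1 or 4 and to 469 without replicate 5. The WT counts fell to 155 and 58 when a peak had to cover at least 0.5 of the merged site, and to 230 and 121 when only sites whose windows all occur once were kept.

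The member called in the most libraries was Gm13456 (ENSMUSG00000082536.1, chr2:40555706-40557407), a copy of Eef1a1, which encodes the elongation factor that brings aminoacyl-tRNA to the ribosome. Its fold enrichment over input was 18.6, 21.3, 19.1, 4.71 and 21.1 in WT Pio livers and 25.4, 9.15, 5.87, 27.4 and 15.1 in WT HFD-Pio livers. It was 10.1 to 31.9 in the 20 KO livers with a median of 19.3, and 2.84 in the 1 untreated WT liver that called it. The Pio-treated WT and KO ranges overlapped. The lower WT values belonged to the same 3 livers that called few members.

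The other members of that kind behaved alike. Rpl14-ps1 (chr7:45324912-45325509), in the span of the ion channel gene Trpm4, had 4.78 to 27.1 in Pio-treated WT livers and 7.57 to 21.7 in KO livers. Gm12715 (chr4:103563287-103564843), a copy of the cytoplasmic actin gene Actg1 in which 13.7% of windows occur once, had 3.5 to 32.1 and 8.45 to 17. Gm7964, a copy of Hnrnpk, which encodes an RNA-binding protein of the nucleus, crossed 15 junctions of its parent and had 2.84 to 16.5 and 9.95 to 24.7. Gm6204, a copy of Rps14, had 1.85 to 35.1 and 6.18 to 17.8. AC122211.1, for which no parent was found and whose windows all occur once, had 2.98 to 38.2 and 9.18 to 31.1. In each of these 5 members the Pio-treated WT and KO ranges overlapped, and the highest WT value was a larger multiple of the lowest than in KO.

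**Figure D2:**
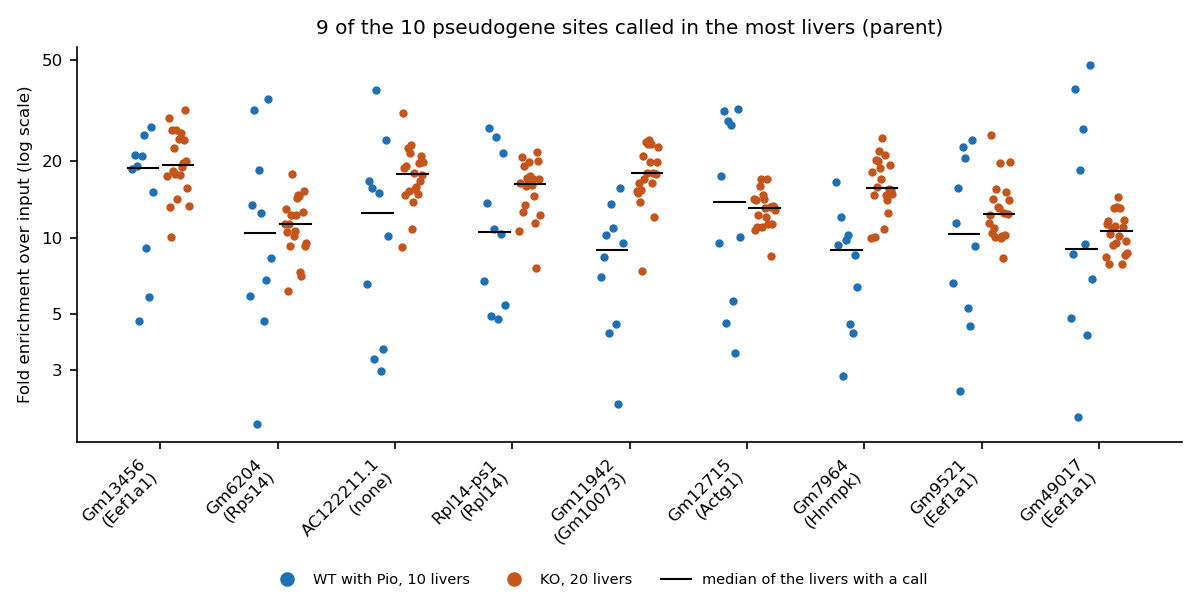
Fold enrichment over input on a log scale at 9 of the 10 pseudogene sites called in the most livers, with 1 point for each Pio-treated WT liver (10) or KO liver (20) that called the site, bars at the median, and the parent gene in brackets. WT and KO points overlap at all 9 sites, and at Gm13456 the medians are 18.9 and 19.3.

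Further copies of Eef1a1 and a copy of Ubb were called in all 10 Pio-treated WT livers and in hardly any KO liver. Gm6170 (chr1:128519853-128521345) had 17.5, 23.9, 33.7, 3.35 and 18.3 in WT Pio and 34.9, 8.96, 2.85, 21.9 and 12.3 in WT HFD-Pio. It was called in 1 KO liver, at 3.74, and in 0 of 10 untreated WT livers. AC124512.1 had 3.08 to 35.5 in Pio-treated WT livers with a median of 14.8 and no call in KO. Gm1821, a transcribed copy of the ubiquitin gene Ubb in which 9.64% of windows occur once, had 4.04 to 28.5 with a median of 14.3 and no call in KO. The exons of Eef1a1 itself were called in all 10 Pio-treated WT livers and all 20 KO livers. The highest peak in these exons had median fold enrichments of 14.5 and 24.1. A different copy, Gm12912, in which 96.1% of windows occur once, was called in 9 of 10 and in 20 of 20, at medians of 13.8 and 20.9.

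Few members followed Pio in KO livers. Gm7517, a copy of Ewsr1, which encodes an RNA-binding protein, was called in 5 of 5 KO Pio livers at 4.2, 4.72, 5.62, 6.19 and 4.76 and in 0 of 5 KO Control livers. It was also called in 4 of 5 KO HFD-Pio livers at 3.75 to 5.66, in 0 of 5 KO HFD livers, and in 0 of 20 WT livers. Gm6296, a copy of Hnrnpa1 within the calpastatin gene Cast, was called in 5 of 5 KO HFD-Pio livers at 3.77 to 4.70 and in 0 of 5 KO HFD livers, yet also in 3 of 5 KO Control livers. The remaining sites named by the rule were called in 4 of 5 Pio-treated KO livers against none and lay between 2.82 and 7.36, namely Gm9118 (parent Npm1), Gm6085 (Nop53), Gm4799 (Taf10) and Gm8684 (Hspd1) on control diet and Gm43199 (Hnrnpa2b1), Ppp1ccb (Ppp1cc) and Rpsa-ps5 (Rpsa) on HFD. Gm45499 (Rplp1), Gm14253 (Pdcd10) and Gm12994 were lost on Pio, and Gm11400 (Eef2), Gm9824 (Pebp1) and Gm14513 (Rps3) on HFD-Pio.

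The 2355 members with a parent came from 718 genes, of which 388 had 1 site and 52 had at least 10. Gapdh, the glycolytic enzyme gene, had the most sites, 76 on 20 chromosomes, 53 of which crossed a junction of its transcript. Pio-treated WT livers called 3 to 75 of the Gapdh copies with a median of 53.5, KO livers called 3 to 11, and untreated WT livers called none. The exons of Gapdh itself (chr6:125161715-125166467) were called in 2 of 10 Pio-treated WT livers and 0 of 20 KO livers. Hmgb1, which encodes a chromatin protein, had 44 sites, of which 0 to 40 were called in Pio-treated WT and 0 to 4 in KO. Eef1a1 had 34 sites, with 13 to 34 and 8 to 13 called.

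The next parents were mostly ribosomal protein genes. Rpl21 had 31 sites, with 2 to 30 called in Pio-treated WT and 0 to 3 in KO, while its own exons were called in 0 of 10 and 1 of 20. Rpl7a had 29 sites, with 0 to 27 and 0 to 7 called, and its own exons in 0 of 10 and 15 of 20. Rpl15 had 28 sites, with 7 to 28 and 1 to 5 called, and its own exons in 7 of 10 and 20 of 20. Ppia, the cyclophilin A gene, had 27 sites, with 3 to 25 and 2 to 4 called, and its own exons in 9 of 10 and 0 of 20. The calling of a parent's exons and of its copies therefore did not run in parallel across these genes. Copies of 1 parent share sequence, so their calls in a liver are not independent.

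**Figure D3:**
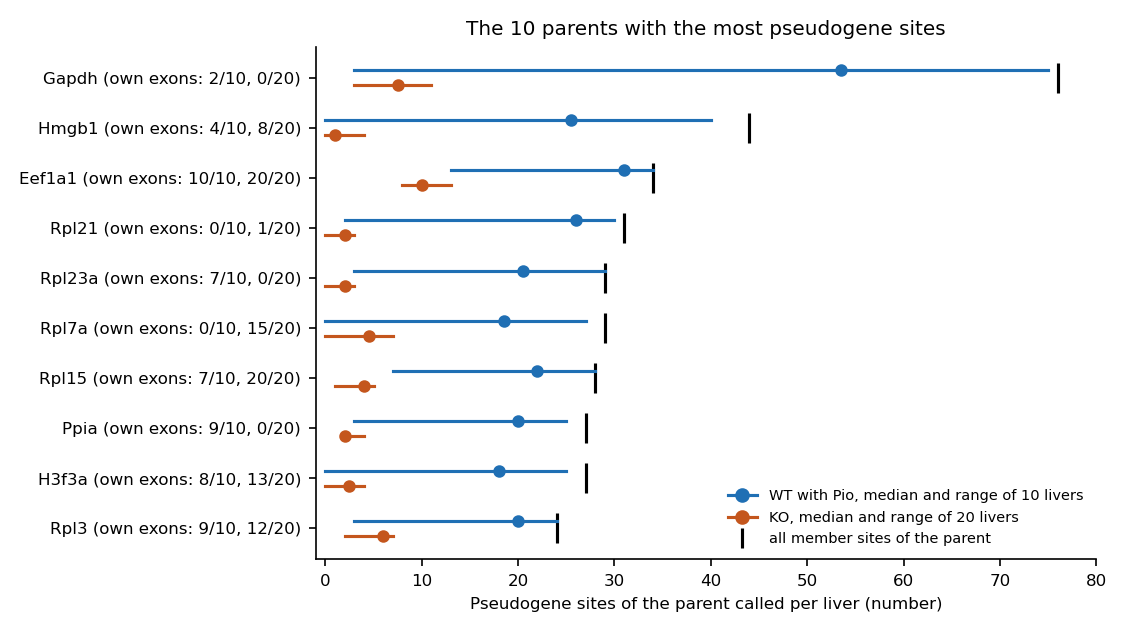
For the 10 parent genes with the most pseudogene sites, lines span the lowest to the highest number of sites called per liver and points mark the median, in 10 Pio-treated WT livers and in 20 KO livers, with a vertical tick at all sites of the parent. Labels give in how many livers of each set the parent's own exons were called, and for Gapdh the sites called are 3 to 75 in WT and 3 to 11 in KO while its exons were called in 2 and 0 livers.

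By function, cytosolic ribosomal proteins were the parents of 793 members (32.5%), and 82 of the 86 genes in that list had at least 1 site. In Pio-treated WT livers a median of 76.6% of these sites was called (15.8% to 96.3%), and in KO livers 17.7% (8.95% to 21.6%). For all members the medians were 63.0% and 23.2%. Gained on Pio and HFD-Pio were 613 and 413 of the ribosomal sites in WT and 2 and 4 in KO, beside 1519, 939, 18 and 22 of all members.

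Other classes of housekeeping genes followed in size. Translation factors had 119 sites (median 77.7% called in Pio-treated WT, 33.6% in KO), led by Eef1a1, Eif1 and Btf3. Glycolysis had 116 (70.7% and 21.1%), of which Gapdh held 76. Chromatin and histone genes had 116 (63.8% and 14.7%), led by Hmgb1, the histone gene H3f3a and Ptma. Chaperones had 109 (52.8% and 25.7%), with Ppia, Hspa8 and Hspd1 in front, and splicing factors had 97 (61.9% and 40.7%). The proteasome and ubiquitin list had 80 sites (63.1% and 21.9%), actins and tubulins had 69 (84.1% and 29.7%), and nuclear genes of oxidative phosphorylation had 65 (63.1% and 20%). Splicing factors were thus the class with the highest KO median among those with over 50 sites.

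Genes typical of hepatocytes were nearly absent among the parents. How many annotated pseudogenes the genes of each list have in all was not counted. The number of sites in a list is therefore not set against the copies that could have been called. None of 30 genes for secreted liver proteins was a parent, and 30 liver metabolic and transport genes gave 7 sites from 4 parents, among them Fth1 with 3 and Ass1 with 2. A list of 35 neural genes gave 14 sites from 6 parents, led by Ywhaq with 5. Those 14 were called at a median of 42.9% in Pio-treated WT livers and 50% in KO livers. The lists held 1585 members in all, and 770 members had a parent in none of them. Ywhaq, Ywhaz and Calm2 are expressed in many tissues besides brain.

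**Figure D4:**
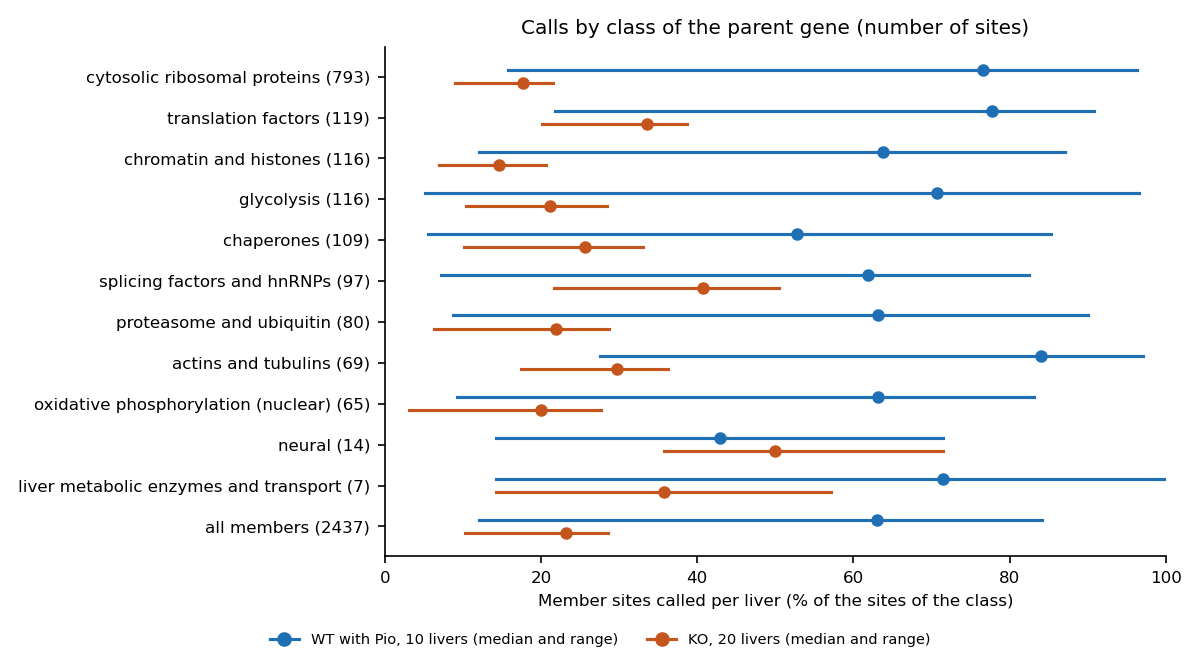
For each class of parent gene, with its number of sites in brackets, lines span the lowest to the highest percent of the sites called per liver and points mark the median, in 10 Pio-treated WT livers and 20 KO livers. The medians for ribosomal proteins are 76.6% in WT and 17.7% in KO, and only the 14 neural sites have a higher median in KO.

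Calls at the sites and at the parents' exons were set side by side in each liver. In Pio-treated WT livers, 34.4% to 89.2% of the called sites with a parent had a call in that parent's exons, with a median of 76.0%, and in KO livers 58.5% to 76.0%, with a median of 72.1%. Looked at from the parent, 22.3% to 89.7% of the sites of called parents were themselves called in Pio-treated WT livers and 15.3% to 36.1% in KO livers. Of all 2355 sites with a parent, called or not, 425 to 1978 (median 1597.5) had a called parent per Pio-treated WT liver. In KO livers 862 to 1396 did (median 1290). The called sites among the 2355 numbered 287 to 1989 (median 1497.5) and 247 to 675 (median 550). Whether joint calls exceeded what these totals alone would give was not tested. Where both were called, the median log2 fold enrichment of the site minus that of the parent was -0.34 to 0.00 per Pio-treated WT liver and -0.75 to -0.43 per KO liver. The parent's value was the highest of all peaks in its exons, while the site was 1 merged interval. This favours a parent with several peaks, so the difference does not show that the parents' exons were the more enriched. Untreated WT livers called 0 to 7 of the 718 parents in an exon and never together with one of their sites. The lower ends of the WT ranges came from livers with few peaks.

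The parents' own peaks were concentrated in exons. Exons made up 17.1% of the length of the 698 parents with an intron and held 75.6% to 96.1% of the peaks within these genes in Pio-treated WT livers. In KO livers they held 85.3% to 93.2%. In untreated WT livers they held 0% to 40%, on 0 to 6 exon peaks and 1 to 34 intron peaks per liver. Per megabase of exon, Pio-treated WT livers had 37.3 to 637 peaks and KO livers 268 to 634, against 1.23 to 9.36 and 4.53 to 21.8 per megabase of intron.

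The members differed from other sites in how much of their sequence is repeated. A median of 76.9% of a member's 50-base windows, the read length, occurred once in the genome, against 100% for the other sites called in at least 3 libraries. All windows occurred once at 20.1% of members and 87.4% of the other sites, and none did at 8.70% and 0.623%. Most of the other sites, 29087, had their summit in a protein-coding exon, which the rule bars for members. At the 4608 others with a summit in no such exon, all windows occurred once at 74.6% and none at 2.02%. A median of 15.9% of a member's windows was found exactly in the parent's transcripts. The 212 members with no window that occurs once were called in 3.30% to 95.3% of cases per Pio-treated WT liver and in 0 of 20 KO livers. These 212 became members through calls in WT livers alone. The 490 members whose windows all occur once were called in 3.67% to 78% (median 46.0%) and 3.88% to 28.4% (median 19%).

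**Figure D5:**
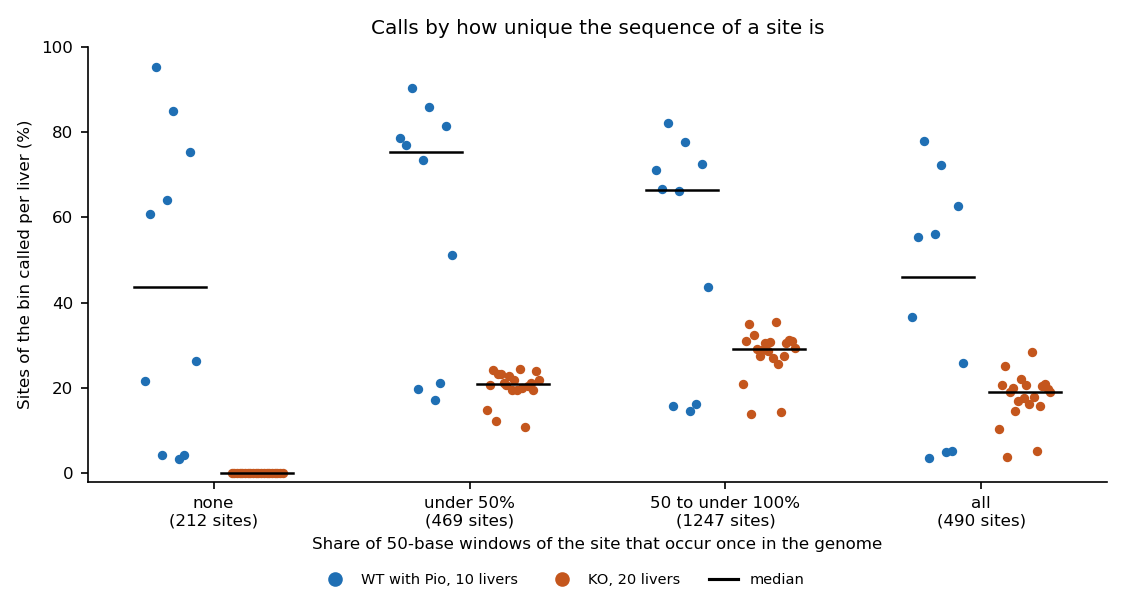
Percent of pseudogene sites called in each liver, by the share of 50-base windows of the site that occur once in the genome, with 1 point for each of 10 Pio-treated WT livers and 20 KO livers and bars at the median. Sites with no such window are called in 0 KO livers and at a median of 43.6% in WT, and sites whose windows all occur once are called at medians of 19% in KO and 46.0% in WT.

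Members closest to their parents were called least often in KO. Of 276 sites with 80% to 90% identity, 66.7% were called in at least 1 KO liver, of 595 with 90% to 95%, 58.5%, of 680 with 95% to 98%, 51.2%, and of 792 with at least 98%, 41.3%. In Pio-treated WT livers the mean number of livers calling a site was 5.05 of 10 in the lowest of these ranges and 5.03 in the highest. A member needed calls in at least 3 libraries, and untreated WT livers made very few. A site without KO calls thus had to be called in Pio-treated WT livers. The level WT mean beside the falling KO share is therefore partly fixed by the rule. Identity and the share of repeated windows move together across sites, and their separate parts were not tested.

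The hexamer repeat bound by RXR pairs was searched for as AGGTCANAGGTCA on both strands with at most 2 mismatches within 100 bp of the summit. It was found at 55 members (2.26%) and at 886 of the other recurrent sites (2.63%). Of the 4608 other recurrent sites with a summit in no protein-coding exon, 118 had it (2.56%). Its rate in background sequence was not counted, so these percentages do not show whether it was enriched. GC content had medians of 48.8% at members and 49.8% at the other recurrent sites.

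Fold enrichment was compared between groups at sites called in all 10 livers of a contrast, fitted with limma on log2 values centred on each library's median over the sites tested. Within a genotype, none of the members tested passed an adjusted p under 0.05 with a change of at least 2-fold. In KO this covered 132 members for Pio against Control and 149 for HFD-Pio against HFD, of which 7 and 16 had an unadjusted p under 0.05, and 0% of all sites tested were higher and 0.478% and 0% lower. In WT it covered 90 members for HFD-Pio against Pio, of which 2 had an unadjusted p under 0.05. Pio against Control and HFD-Pio against HFD could not be fitted in WT, because 9 and 6 sites were called in all 10 livers and none of them was a member.

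Between Pio-treated genotypes some members differed in both directions. Of 72 members tested in WT Pio against KO Pio, 8 were higher and 2 lower in WT, against 6.67% and 13.3% of the 225 sites tested. Of 62 tested in WT HFD-Pio against KO HFD-Pio, 9 were higher and 4 lower, against 8.33% and 13.9% of 144. Rps19-ps6, a copy of Rps19, had 15.8, 21.7, 29.0, 4.23 and 21.6 in WT Pio and 5.64, 6.60, 5.50, 3.71 and 3.78 in KO Pio (log2 difference 1.65, SE 0.30, limma adjusted p = 8.0e-07). Rps3a3, a copy of Rps3a1 within Pde4d, was higher in WT in both comparisons (1.32 and 1.27), Gm12844, a copy of Rhoa, in the first (1.49), and H3f3a-ps1 (1.47) and Gm12988, a copy of Skp1a (1.24), in the second. Gm7964 was lower in WT in both (-1.10 and -1.10), as was Gm11942 (-1.01 and -1.19), a copy of Gm10073, and Gm12696, a copy of Hnrnpc, was lower in the second (-1.16). The numbers past the threshold were 52 and 28 when a call in 4 of 5 livers of both groups sufficed, 4 and 0 without centring, and up to 46 for the first comparison without WT Pio replicate 4.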

How the data were processed

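RXR ChIP-Seq peak lists of 40 livers were used; the 40 input libraries had no files of their own. Per the file headers, the authors called peaks in each library against its own input with MACS2 and deposited, for every peak, the pileup signal, the fold enrichment as a ratio, and −log10 of the p-value and of the q-value. Reads of 50 bases had been aligned to mm10 with Novoalign, per the labels. Members, gene lists and tests were chosen with earlier results of these data known.

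Peaks on chromosomes 1 to 19, X and Y that overlapped by at least 1 bp were merged into sites and annotated with GENCODE M21. Parents were assigned with blastn (BLAST 2.17.0; at least 80% identity over at least 50% of the pseudogene, highest bit score). Each library gave 1 value for a test. Groups of 5 livers were compared by exact two-sided permutation over 252 assignments, with Benjamini-Hochberg adjustment over 12 contrasts or 4 differences of effects. Numbers of peaks were tested as log2(number + 1) and ratios as log2 with 0.5 added to both counts. A limma fit (version 3.58.1, R 4.3.3, with trend) was run over all sites of a contrast, Fisher's exact test of the calls is not reported because the calls chose the members, and scripts were tested on simulated data. The named sites were the 10 members called in the most libraries (ties by mean fold enrichment), the 10 parents with the most sites, up to 5 gained and 3 lost members per Pio contrast, up to 3 members each way past the limma threshold, and the 3 largest parents of each class. Of the 10 members called in the most libraries, 1 is not reported here. Libraries share at most 0.566% of identical intervals. The p-values of the contrasts measure the spread between livers. Those of the 4 differences of effects also carry the Pio effect itself, since treated and untreated livers were shuffled within each contrast. Counting error per peak was not estimated, since the lists hold called peaks only.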

Additional observations from a re-analysis of the deposited data

Results flagged for a closer look

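The effect of Pio on the share of peaks in pseudogenes was larger in WT than in KO. The excess was 16.2 percentage points on control diet and 12.8 points on HFD (WT effect minus KO effect, labels permuted within each contrast). That permutation does not test whether the effects are equal, as given above. The share was also far from the rest of its group in KO HFD replicate 5, at 3.38% against 2.78% to 2.84% in the other 4 livers. That library had 8311 peaks, against 19848 to 28922 in the others. The KO library with the fewest peaks, KO Control replicate 4 with 7630, had the highest KO share, 3.53%. KO HFD replicate 5 was the only such library in the 32 combinations of group and measure examined. Chance gives about 1 in 20, so 1 in 32 is no more than chance gives.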

How the results depend on the processing

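Replicate numbers did not pair the livers: the correlations of deviations between livers with the same number ran from -0.50 to 0.03 over 40 pairs of livers, none was above 0.1, and 6 livers correlated best with their own number. With the replicate block (sign flips over 5 pairs, smallest p 0.0625) no exact permutation call could remain, and the values themselves are those reported. For the share these were 15.8 and 12.8 points for Pio in WT on the 2 diets, -0.454 for Pio in KO on control diet, and -2.87, 13.3, -2.78 and 9.97 for WT minus KO in Control, Pio, HFD and HFD-Pio (adjusted p = 0.107). For the log2 number they were 7.78 and 8.53 for Pio in WT, and -6.30 and -7.72 for WT minus KO in Control and HFD (adjusted p = 0.188). For the log2 ratio to coding-exon peaks they were 3.15 and 2.80 for Pio in WT, -0.26, -0.12 and 0.22 for KO Pio, KO HFD and KO HFD-Pio against Control, Control and Pio, and 0.91, 4.32, 1.48 and 4.19 for WT minus KO (adjusted p = 0.125 to 0.167).

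Without the short-fragment libraries the calls for Pio in WT and for Pio-treated WT minus KO were lost with 2 livers in each Pio-treated WT group, at 19.4 and 10.1 points (Pio in WT), 16.9 and 7.27 points (WT minus KO), log2 numbers of 6.63 and 6.88, and log2 ratios of 3.45, 3.18, 4.62 and 4.58. The log2 number in WT HFD-Pio minus KO HFD-Pio turned to -1.10. It also turned to -0.078 at a -log10 q of at least 5 and to -0.28 with once-only summits, in no case past the threshold.

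WT HFD-Pio minus WT Pio, which passed no test, changed direction in share at a q of at most 0.05 (3.26 points) and at a fold enrichment of at least 5 (0.128), with the difference in Pio effect between diets in WT at 3.41 and 0.416, and in log2 ratio at a -log10 q of at least 5 (-0.073). KO Pio minus KO Control in share was no longer past the threshold at a fold enrichment of at least 5 (-0.496), in lists of equal length (-0.283) and with once-only summits (-0.159). Its log2 ratio was -0.17 in lists of equal length, where its log2 number turned to -0.10. KO HFD minus KO Control in log2 ratio lost its call at -0.11 (-log10 q), -0.068 (fold enrichment), -0.035 (equal length), -0.11 (any overlap with an exon) and -0.052 (once-only summits). KO HFD-Pio minus KO Pio lost it at a -log10 q of at least 5 (0.25), and at a fold enrichment of at least 5 its share passed (0.594 points) while its log2 number turned to -0.10. The log2 number of KO HFD-Pio minus KO HFD turned to -0.12 at that fold enrichment. WT Control minus KO Control in log2 ratio lost its call at 0.34 (q of at most 0.05), 0.11 (-log10 q of at least 5) and 0.23 (equal length), and WT HFD minus KO HFD at 0.89 (any overlap). In lists of equal length, WT exceeded KO in log2 number by 2.89 in Pio and 2.14 in HFD-Pio and passed, and WT HFD minus WT Control turned to 0.083. The log2 ratio of the latter turned to -0.043 with any overlap. The difference in Pio effect between diets in KO passed at a -log10 q of at least 5 (0.956) and at a fold enrichment of at least 5 (0.738).

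Members gained on Pio and HFD-Pio in WT and in KO numbered 825, 302, 10 and 11 at a -log10 q of at least 5, 362, 166, 8 and 11 in lists of equal length, 155, 58, 10 and 14 when a peak covered 0.5 of the site, and 230, 121, 3 and 9 at sites whose windows all occur once. With at least 4 of 5 livers, 410 were gained on HFD-Pio in WT and 6 and 5 in KO. Lost KO members numbered 3 and 2 on Pio at a -log10 q of at least 5 and at once-only sites, 1 and 0 on Pio and HFD-Pio with 4 of 5 livers, and 10 on HFD-Pio when a peak covered 0.5 of the site. Past the limma threshold were 52 and 28 members with calls in at least 4 of 5 livers, and 4 and 0 without centring. The causes were not tested.

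Leaving out each liver in turn kept the direction and call of Pio against untreated WT in share, number and ratio. Ranges of the others that changed were -0.511 to -0.342 points (share, KO Pio minus Control), -0.0761 to 0.121 (share, KO HFD-Pio minus HFD), 0.221 to 0.387 (share, KO HFD-Pio minus Pio), 7.53 to 11.9 (share, WT minus KO in HFD-Pio), and 0.348 to 0.575 (Pio effect in KO, HFD minus control diet). In log2 number they were -0.16 to 0.32 (KO HFD minus Control) and 0.90 to 1.76 (WT minus KO in Pio). In log2 ratio they were -0.15 to -0.10 (KO HFD minus Control), 0.055 to 0.12 (KO HFD-Pio minus HFD) and -0.057 to 0.22 (WT HFD-Pio minus Pio). Gained members ranged from 411 to 940 on HFD-Pio in WT (469 or fewer without replicate 1, 4 or 5 of HFD-Pio), 8 to 33 on Pio in KO and 8 to 44 on HFD-Pio in KO, lost members from 1 to 15 and 0 to 9, and members past the limma threshold in WT Pio minus KO Pio from 7 to 46 (most without WT Pio replicate 4). The KO counts moved by more than 1.5 times without KO Pio replicates 1, 2, 4 and 5 and KO Control replicates 2, 3 and 5 (gained on Pio), KO HFD-Pio replicates 1 to 4 and KO HFD replicate 3 (gained on HFD-Pio), KO Pio replicates 1, 3 and 4 and KO Control replicates 1, 2, 3 and 5 (lost on Pio), and KO HFD-Pio replicates 3 and 4 and KO HFD replicates 1 to 4 (lost on HFD-Pio).

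Other combinations of result and alternative, 309 in all besides the livers left out, kept their direction and side of the threshold or, for counts of members, stayed within 1.5 times. Within these, sizes still moved. In share, WT minus KO reached 36.4 points in Pio and 33.9 in HFD-Pio (-log10 q of at least 5) and -5.69 in Control and -5.53 in HFD (equal length), and the 4 were 5.60, 3.63, -1.34 and -1.35 with once-only summits. The genotype difference in the Pio effect ranged from 6.94 to 41.2 points on control diet and from 4.98 to 38.1 on HFD. In log2 ratio, Pio in WT went down to 1.67 (HFD, once-only summits), and WT minus KO in Control and HFD went up to 2.09 and 2.69 (fold enrichment of at least 5). In log2 number, Pio in WT ranged from 7.02 to 8.84 on control diet and from 6.68 to 8.61 on HFD. The planned requirement of an overlap of 0.5 with the merged site left all counts as they were, since every peak lies within its site. Peak lists hold no depth for a site that was not called, so an uncalled site may carry signal under the cutoff.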
